A study of Homo sapiens with 15 samples.

Results

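The comparison set all libraries carrying a CRISPR edit of NF1 against all libraries with NF1 intact. It used 9 edited and 6 intact libraries, which are all 15 libraries of the series, assigned by the labelled genotype and not by any measured value. The cells were MCF10, a non-tumorigenic human mammary epithelial line, profiled by poly(A) RNA sequencing. The intact arm held 3 parental libraries and 3 libraries of an empty vector control. The edited arm held 3 libraries made with NF1 guide RNA 1, 3 with guide RNA 2, and 3 with both guides. All 5 lines were untreated and grew in one medium with horse serum, insulin, hydrocortisone, EGF, a ligand of the EGF receptor, and cholera toxin, an activator of adenylyl cyclase. The labels call the 3 libraries of a line biological replicates. They do not say whether a line was a single clone or a pool, what the empty vector carried, or what sequence change the guides left. The arms therefore contain 3 edited and 2 intact lines, and p-values over libraries measure the spread between cultures more than the spread between independently made lines.

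Neurofibromin, the product of NF1, is a GTPase-activating protein. It returns RAS from its GTP-bound to its GDP-bound form and so acts as a brake on the RAF-MEK-ERK and PI3K branches of RAS signalling. Loss of NF1 causes neurofibromatosis type 1, in which breast cancer risk is raised, and NF1 is recurrently mutated in breast tumours. In epithelial cells, ERK output is commonly read from transcripts of its own feedback inhibitors, such as the DUSP phosphatases and the SPRY proteins, and from immediate early genes such as EGR1.

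Values are CPM, the count over the library total, which are comparable between libraries for 1 gene and not between genes, since they are not divided by length. Line values are means ± SD over 3 libraries. A fold change is the log2 ratio of edited to intact with its standard error (SE), from edgeR's quasi-likelihood test over the 2 arms. A gene was called changed at an adjusted p under 0.05 over all 17457 genes tested. Library totals ran from 46129559 to 78976917 counts (median 55942785), so that 3 counts, taken as the smallest detectable level, equalled 0.038 to 0.065 CPM, a limit that covers counting error only. Gene positions are those of GENCODE release 29 on GRCh38.

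In 3 libraries the highest correlation was with a library of another line. Guide 2 replicate 2 correlated at most at 0.947 with the other guide 2 libraries and at 0.985 with parental replicate 1 (Pearson's r across genes on log2 CPM). Parental replicate 2 correlated at 0.99 with guide 2 replicate 3 and at most at 0.988 with its own line. Guide 1 replicate 3 correlated at 0.991 with guide 2 replicate 3 and at 0.989 with its own line. The summed level of 6 basal mammary markers was 8666 CPM in guide 2 replicate 2, the top of the edited range (1328 to 8666), and 1497 CPM in parental replicate 2, the bottom of the intact range (1497 to 6043). The summed luminal markers covered 255 to 458 CPM in edited and 312 to 486 CPM in intact libraries. All 6 basal markers had counts in every library. The adhesion molecule E-cadherin (CDH1), a defining epithelial gene, was nearly absent in part of the edited arm. It measured 27.5 ± 22.4 CPM in parental, 72.7 ± 47.3 in empty vector, 0.110 ± 0.0785 in guide 1, 30.5 ± 52.7 in guide 2 and 18.5 ± 4.44 in both-guides libraries. Guide 2 replicates 1 to 3 held 0.0361, 91.4 and 0.0434 CPM. Of 20 markers of fibroblasts, endothelium, blood, neural and fat cells, 8 stayed at 3 counts or fewer in every library, with CD3E, SOX10 and ADIPOQ among those at 0, and the summed level covered 18.3 to 53.6 CPM in edited and 32.6 to 59.4 CPM in intact libraries. In such bulk RNA, fewer cells of a type and less RNA per cell cannot be told apart.

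NF1 itself (ENSG00000196712, chr17:31094927-31382116, plus strand) was lower in every edited library. It ranged over 26.0 to 51.3 CPM (median 29.8) in the edited and over 115 to 159 CPM (median 137) in the intact libraries, so the arms were far apart. By line it measured 151 ± 9.30 CPM in parental, 124 ± 8.87 in empty vector, 47.4 ± 3.87 in guide 1, 29.4 ± 2.27 in guide 2 and 28.1 ± 1.81 in both-guides libraries. The edited mean was 25.5% of the intact mean, a fall of 1.97 ± 0.15 (SE) on the log2 scale (adjusted p = 1.34e-05), and NF1 was called in all 6 contrasts of an edited line with an intact line. Guide 1 libraries kept more NF1 transcript than the others, with a log2 difference of 0.69 ± 0.0880 (SE) from guide 2 (adjusted p = 0.0122). The both-guides line differed from guide 1 by -0.77 ± 0.0882 (adjusted p = 0.00411) and from guide 2 by -0.0732 ± 0.0880 (adjusted p = 0.970). Reads over an edited exon can still be counted, so transcript level does not measure neurofibromin. NF1 has pseudogene copies elsewhere in the genome and 7 overlapping annotated genes, 5 of them on the other strand, of which EVI2B was the most abundant at 8.77 CPM. Over the 5 line means alone, the exact permutation test gave p = 0.2 (two-sided, by doubling the smaller tail). Under that rule this is the smallest p that its 10 arrangements allow.

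No gene lying inside or beside NF1 on 17q11 was called with all 15 libraries. Of 24 listed neighbours 23 were tested, and their median log2 difference was -0.05, against 0.01 over all genes tested. EVI2A, a membrane protein gene encoded within an NF1 intron, stood at 4.28 ± 1.41 CPM in parental, 2.64 ± 0.510 in empty vector, 3.12 ± 0.304 in guide 1, 2.85 ± 1.01 in guide 2 and 3.23 ± 0.176 in both-guides libraries. EVI2B, which also lies within NF1, stood at 9.20 ± 1.83 CPM in parental, 9.69 ± 1.61 in empty vector, 8.47 ± 0.167 in guide 1, 7.39 ± 3.02 in guide 2 and 9.12 ± 0.0797 in both-guides libraries. Both overlapped between the arms, and both lie on the strand opposite to NF1, so that reads of the gene and of NF1 introns cannot be separated if counting ignored strand. SUZ12, a core subunit of the Polycomb repressive complex PRC2, is often deleted together with NF1. It stood at 104 ± 2.10 CPM in parental, 82.5 ± 3.27 in empty vector, 81.9 ± 17.9 in guide 1, 93.8 ± 5.82 in guide 2 and 94.8 ± 6.80 in both-guides libraries, with overlapping arms (log2 -0.04 ± 0.0914, adjusted p = 0.89). Without guide 2 replicate 2, 1 of the 23 neighbours was called in each direction. In that fit 2.46% of all genes were called higher and 5.29% lower, so these calls lay near the share over all genes. RAB11FIP4, encoding a RAB11 effector, was 2.17 ± 1.86 CPM in parental, 2.41 ± 0.529 in empty vector, 0.289 ± 0.0708 in guide 1, 2.46 ± 3.65 in guide 2 and 1.29 ± 0.237 in both-guides libraries. Its log2 difference moved from -0.78 (adjusted p = 0.695) to -1.78 (adjusted p = 0.0381). RNF135, a ubiquitin ligase gene, was 27.4 ± 5.38 CPM in parental, 26.9 ± 0.903 in empty vector, 33.9 ± 1.17 in guide 1, 28.5 ± 6.67 in guide 2 and 32.1 ± 1.42 in both-guides libraries. It moved from 0.21 (adjusted p = 0.426) to 0.27 (adjusted p = 0.0342).

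Across the genome, 18 genes were called, or 0.103% of those tested. Of these, 4 were higher (0.0229%) and 14 lower (0.0802%) in edited cells. An unadjusted p under 0.05 was reached by 2135 genes (12.2%). In CPM, 49 genes (0.281%) did not overlap between the arms, 17 of them higher (0.0974%) and 32 lower (0.183%) in all 9 edited libraries, and 13 of the 49 were called. The number of calls rested heavily on guide 2 replicate 2: without that library 1383 genes were called (7.75%), 439 higher (2.46%) and 944 lower (5.29%), and all 18 genes were among them. Leaving out parental replicate 2 or guide 1 replicate 3 gave 78 and 10 calls. It also rested on which intact line was used, with 3 calls when the empty vector line was left out and 672 when the parental line was.

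**Figure D1:**
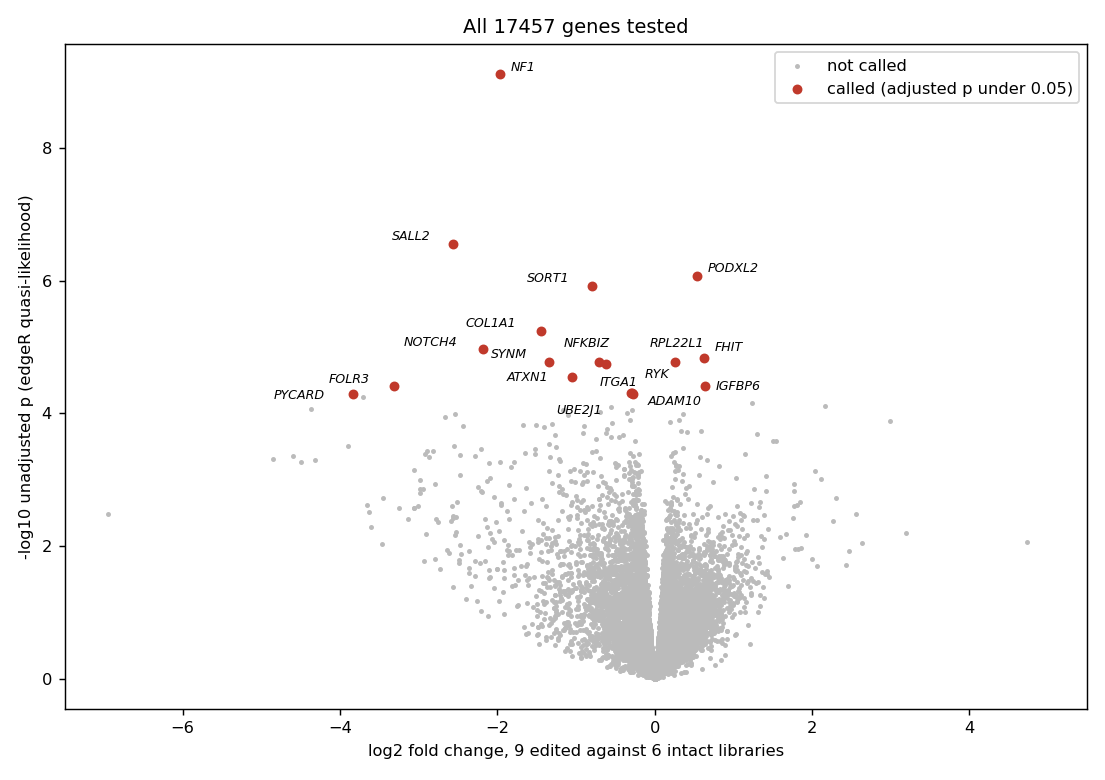
The log2 fold change of the 9 edited against the 6 intact libraries (x axis) is plotted against the -log10 unadjusted p from edgeR (y axis) for each of the 17457 genes tested. Red points are the 18 called genes, 4 to the right of 0 and 14 to the left, with NF1 at the top.

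Most of the 18 calls were lost in most of the fits that left out 1 library, although the direction of the difference was kept. In the 15 fits that each left out 1 library, NF1, SALL2, SORT1 and PODXL2 were called 15 times and COL1A1 9 times. NFKBIZ, SYNM and NOTCH4 were called in 5 of these fits, ADAM10, RPL22L1, FHIT and ITGA1 in 4, and PYCARD, FOLR3, ATXN1, IGFBP6, RYK and UBE2J1 in 3.

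The genes that rose in edited cells were PODXL2, FHIT, IGFBP6 and RPL22L1. PODXL2 (ENSG00000114631, chr3:127629181-127672809, plus strand), encoding endoglycan, a sialomucin related to CD34 that serves as a selectin ligand, ranged over 14.3 to 18.2 CPM (median 16.2) in edited and over 10.6 to 11.9 CPM (median 11.1) in intact libraries. Its arms did not overlap. By line it was 10.9 ± 0.316 CPM in parental, 11.6 ± 0.462 in empty vector, 16.3 ± 1.19 in guide 1, 16.7 ± 2.08 in guide 2 and 15.8 ± 0.490 in both-guides libraries, and it rose by 0.53 ± 0.0684 (SE) on the log2 scale (adjusted p = 0.00485). FHIT (ENSG00000189283, chr3:59749310-61251459, minus strand), a dinucleosidase gene at a common fragile site and a proposed tumour suppressor, ranged over 6.47 to 9.46 CPM (median 8.47) in edited and 4.51 to 5.88 CPM (median 5.56) in intact libraries, again without overlap. By line FHIT was 5.38 ± 0.333 CPM in parental, 5.37 ± 0.749 in empty vector, 8.44 ± 1.46 in guide 1, 7.58 ± 1.02 in guide 2 and 8.79 ± 0.617 in both-guides libraries, a log2 rise of 0.62 ± 0.10 (adjusted p = 0.0285).

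IGFBP6 (ENSG00000167779, chr12:53097436-53102345, plus strand) encodes a secreted protein that binds insulin-like growth factor II with preference. It ranged over 68.3 to 99.3 CPM (median 94.5) in edited and 38.0 to 70.2 CPM (median 56.8) in intact libraries, overlapping through guide 2 replicate 2, at 68.3 CPM, and parental replicate 2, at 70.2 CPM. Its line values were 64.7 ± 7.73 CPM in parental, 50.5 ± 10.8 in empty vector, 95.4 ± 1.00 in guide 1, 76.9 ± 7.70 in guide 2 and 95.5 ± 3.89 in both-guides libraries (log2 0.64 ± 0.11, adjusted p = 0.049). RPL22L1 (ENSG00000163584, chr3:170864875-170870483, minus strand), a paralogue of ribosomal protein L22, changed least among the 4 genes, from 191 to 224 CPM (median 203) in intact to 234 to 261 CPM (median 239) in edited libraries without overlap. It measured 214 ± 8.39 CPM in parental, 194 ± 3.20 in empty vector, 246 ± 12.6 in guide 1, 241 ± 8.18 in guide 2 and 242 ± 5.71 in both-guides libraries (log2 0.25 ± 0.0417, adjusted p = 0.0285). Any pseudogene copies of RPL22L1 would make the count uncertain, and these were not examined.

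Among the 14 genes that fell, COL1A1, ITGA1, SYNM, ADAM10, RYK and SORT1 encode matrix, cell surface, cytoskeletal or sorting proteins. SORT1 (ENSG00000134243, chr1:109309568-109397951, minus strand), encoding sortilin, a receptor that carries neurotrophin precursors and other ligands to lysosomes, ranged over 20.2 to 27.8 CPM (median 24.0) in edited and 29.8 to 51.2 CPM (median 43.4) in intact libraries. Its arms did not overlap, although parental replicate 1, at 29.8 CPM, came close to guide 2 replicate 3, at 27.8 CPM. By line SORT1 was 36.9 ± 6.38 CPM in parental, 46.9 ± 3.79 in empty vector, 24.1 ± 3.41 in guide 1, 25.5 ± 2.53 in guide 2 and 22.8 ± 1.13 in both-guides libraries, and it fell by 0.80 ± 0.11 (SE) on the log2 scale (adjusted p = 0.00520). COL1A1 (ENSG00000108821, chr17:50183289-50201632, minus strand) encodes the alpha 1 chain of type I collagen and is chiefly a product of mesenchymal cells. It ranged over 2.88 to 6.41 CPM (median 4.29) in edited and 7.77 to 20.0 CPM (median 12.9) in intact libraries, without overlap. By line COL1A1 was 10.4 ± 4.27 CPM in parental, 15.3 ± 4.16 in empty vector, 5.07 ± 1.91 in guide 1, 4.65 ± 1.18 in guide 2 and 4.45 ± 0.792 in both-guides libraries. It fell by 1.45 ± 0.22 (adjusted p = 0.0198).

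ITGA1 (ENSG00000213949, chr5:52787896-52959210, plus strand), the alpha subunit of a collagen and laminin receptor, ranged over 15.9 to 24.0 CPM (median 19.4) in edited and 24.3 to 34.5 CPM (median 31.6) in intact libraries. The highest edited library lay just under the lowest intact one, parental replicate 2. By line ITGA1 was 27.4 ± 2.85 CPM in parental, 34.0 ± 0.690 in empty vector, 20.5 ± 3.16 in guide 1, 18.8 ± 3.41 in guide 2 and 21.1 ± 2.50 in both-guides libraries (log2 -0.61 ± 0.10, adjusted p = 0.0285), and an abundant gene, at a mean of 39.0 CPM, lies within it. SYNM (ENSG00000182253, chr15:99098217-99135593, plus strand) encodes synemin, an intermediate filament protein that links desmin and vimentin filaments to adhesion sites. It had 565 counts over the edited and 884 over the intact libraries and ranged over 0.542 to 1.57 CPM (median 1.08) against 1.72 to 3.41 CPM (median 2.85), without overlap. Its line values were 2.11 ± 0.577 CPM in parental, 3.17 ± 0.241 in empty vector, 1.36 ± 0.183 in guide 1, 1.07 ± 0.0503 in guide 2 and 0.674 ± 0.123 in both-guides libraries, and the fall was 1.35 ± 0.22 on the log2 scale (adjusted p = 0.0285).

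The falls of ADAM10 and RYK were small. ADAM10 (ENSG00000137845, chr15:58588807-58749978, minus strand), a membrane metalloprotease that sheds NOTCH receptors, E-cadherin and EGF-family ligands, ranged over 144 to 173 CPM (median 156) in edited and 180.5 to 197 CPM (median 189) in intact libraries, without overlap. By line ADAM10 was 186 ± 6.86 CPM in parental, 191 ± 8.90 in empty vector, 158 ± 14.4 in guide 1, 149.7 ± 5.74 in guide 2 and 158 ± 13.0 in both-guides libraries (log2 -0.28 ± 0.0509, adjusted p = 0.0497). RYK (ENSG00000163785, chr3:134065303-134250744, minus strand), a catalytically inactive receptor that binds WNT ligands, was 99.7 ± 3.05 CPM in parental, 104 ± 2.00 in empty vector, 79.1 ± 4.46 in guide 1, 85.1 ± 11.4 in guide 2 and 83.2 ± 6.05 in both-guides libraries (log2 -0.31 ± 0.0556, adjusted p = 0.0497). Its arms overlapped through guide 2 replicate 2, at 98.2 CPM, which lay above parental replicate 2, at 96.7 CPM.

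NFKBIZ and PYCARD belong to inflammatory signalling. NFKBIZ (ENSG00000144802, chr3:101827991-101861022, plus strand) encodes I-kappa-B-zeta, a nuclear cofactor of NF-kappa-B that is induced by interleukin-1 and itself switches on further cytokine genes. It ranged over 6.04 to 8.31 CPM (median 6.76) in edited and 7.44 to 13.4 CPM (median 11.8) in intact libraries, and the arms overlapped because parental replicate 2, at 7.44 CPM, lay below guide 1 replicate 2, at 8.31 CPM. By line it was 10.1 ± 2.64 CPM in parental, 12.3 ± 1.06 in empty vector, 7.34 ± 0.891 in guide 1, 6.67 ± 0.379 in guide 2 and 6.59 ± 0.487 in both-guides libraries, and it fell by 0.70 ± 0.12 on the log2 scale (adjusted p = 0.0285). PYCARD (ENSG00000103490, chr16:31201485-31203450, minus strand) encodes ASC, the adaptor that joins inflammasome sensors to caspase-1. It had 0 counts in all 3 guide 1 libraries, 26 counts over the 9 edited libraries and 246 over the 6 intact ones. By line PYCARD was 0.273 ± 0.0393 CPM in parental, 1.21 ± 0.295 in empty vector, 0 ± 0 in guide 1, 0.0325 ± 0.0287 in guide 2 and 0.128 ± 0.0657 in both-guides libraries. Edited libraries held 6.59% of the intact level (exact 95% interval 4.22% to 9.90%, counting error only), the arms did not overlap, and the adjusted p was 0.0497. The empty vector line held more PYCARD than the parental line too (adjusted p = 0.0260).

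NF-kappa-B acts through sites in promoters, and the promoter sequences of NFKBIZ and of the chemokine gene CXCL1, taken from RefSeq on GRCh38.p14, are shown because NFKBIZ was called and CXCL1 lay near the threshold in the same direction. Each is the 250 bases before the annotated start, 5′ to 3′ on the gene's strand, with the match to the kappa-B motif, GGG and TTTCC with any 2 bases between them, in capitals. The NFKBIZ stretch is chr3:101827740-101827989 on the plus strand and its match begins 223 bases before the start. The CXCL1 stretch is chr4:73869143-73869392 on the plus strand and its match begins 79 bases before the start.
NFKBIZ: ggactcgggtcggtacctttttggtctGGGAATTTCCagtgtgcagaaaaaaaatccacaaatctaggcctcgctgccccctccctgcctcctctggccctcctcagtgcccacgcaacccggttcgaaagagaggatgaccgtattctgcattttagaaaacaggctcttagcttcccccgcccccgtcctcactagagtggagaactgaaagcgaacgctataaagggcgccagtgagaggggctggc
CXCL1: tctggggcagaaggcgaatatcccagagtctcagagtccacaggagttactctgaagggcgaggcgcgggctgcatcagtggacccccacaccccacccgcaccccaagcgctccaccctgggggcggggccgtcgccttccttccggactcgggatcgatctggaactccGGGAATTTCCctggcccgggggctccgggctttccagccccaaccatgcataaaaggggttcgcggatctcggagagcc
The motif, searched on both strands and chosen after the values were seen, occurred in 608 of 35116 promoters of this length (1.73%) and in 225 of 11751 promoters of tested genes (1.91%). Among called genes with a promoter sequence it was found in 1 of 17 (5.88%), and among tested genes of the interleukin-1, chemokine and cytokine list in 6 of 13 (46.2%). These 6 include copies of 1 gene and do not all lie lower in edited libraries. The list was also chosen with earlier results of these data known, so its share is not a test. CXCL2 and CXCL3, copies of CXCL1 on chromosome 4, each hold the same 10 letters at 78 and 79 bases before their starts. A match describes the letters only and does not show a site in use.

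SALL2, NOTCH4 and ATXN1 act in transcription. SALL2 (ENSG00000165821, chr14:21521081-21537216, minus strand), a zinc-finger transcription factor gene, fell in every edited library, with 1 to 6 counts in each edited and 10 to 23 in each intact library. By line SALL2 was 0.258 ± 0.0940 CPM in parental, 0.401 ± 0.0442 in empty vector, 0.0475 ± 0.0284 in guide 1, 0.0398 ± 0.0131 in guide 2 and 0.0740 ± 0.0265 in both-guides libraries. The edited level was 16.4% of the intact level (exact 95% interval 10.5% to 24.9%), the arms did not overlap, and the fall was 2.56 ± 0.30 on the log2 scale (adjusted p = 0.00241). NOTCH4 (ENSG00000204301, chr6:32194843-32224067, minus strand), a NOTCH receptor best known from vascular and mammary cells, had 42 counts over edited and 119 over intact libraries. Its line values were 0.212 ± 0.0630 CPM in parental, 0.512 ± 0.159 in empty vector, 0.0952 ± 0.0317 in guide 1, 0.0566 ± 0.0294 in guide 2 and 0.0812 ± 0.0226 in both-guides libraries, and the edited level was 22.0% of intact (15.1% to 31.5%) without overlap in CPM (adjusted p = 0.0285). The highest edited library, at 0.127 CPM, lay just under the lowest intact one, at 0.140 CPM. The raw counts overlapped, at 2 to 10 in edited and 8 to 37 in intact libraries.

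ATXN1 (ENSG00000124788, chr6:16299112-16761491, minus strand), encoding the polyglutamine protein ataxin-1, a partner of the repressor capicua that silences ETV transcription factor genes under ERK control, ranged over 5.11 to 8.52 CPM (median 7.09) in edited and 8.17 to 22.3 CPM (median 13.6) in intact libraries. It overlapped through 1 intact library, parental replicate 1, at 8.17 CPM. By line ATXN1 was 10.6 ± 2.73 CPM in parental, 17.3 ± 4.47 in empty vector, 6.30 ± 1.09 in guide 1, 6.24 ± 0.834 in guide 2 and 7.77 ± 0.700 in both-guides libraries (log2 -1.05 ± 0.18, adjusted p = 0.0411). UBE2J1 (ENSG00000198833, chr6:89326625-89352848, minus strand), an E2 ubiquitin-conjugating enzyme of endoplasmic-reticulum-associated degradation, was 88.5 ± 3.45 CPM in parental, 99.0 ± 4.67 in empty vector, 76.2 ± 5.32 in guide 1, 76.5 ± 1.21 in guide 2 and 78.2 ± 4.38 in both-guides libraries (log2 -0.29 ± 0.0519, adjusted p = 0.0497), without overlap. FOLR3 (ENSG00000110203, chr11:72114869-72139892, plus strand), a secreted folate receptor gene, rested on 14 edited and 91 intact counts. FOLR3 measured 0.114 ± 0.0697 CPM in parental, 0.444 ± 0.116 in empty vector, 0.0232 ± 0.0204 in guide 1, 0.0169 ± 0.0182 in guide 2 and 0.0357 ± 0.0357 in both-guides libraries. Of the 9 edited libraries 8 held 3 counts or fewer, and the edited level was 9.60% of intact (exact 95% interval 5.05% to 16.9%, adjusted p = 0.049).

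**Figure D2:**
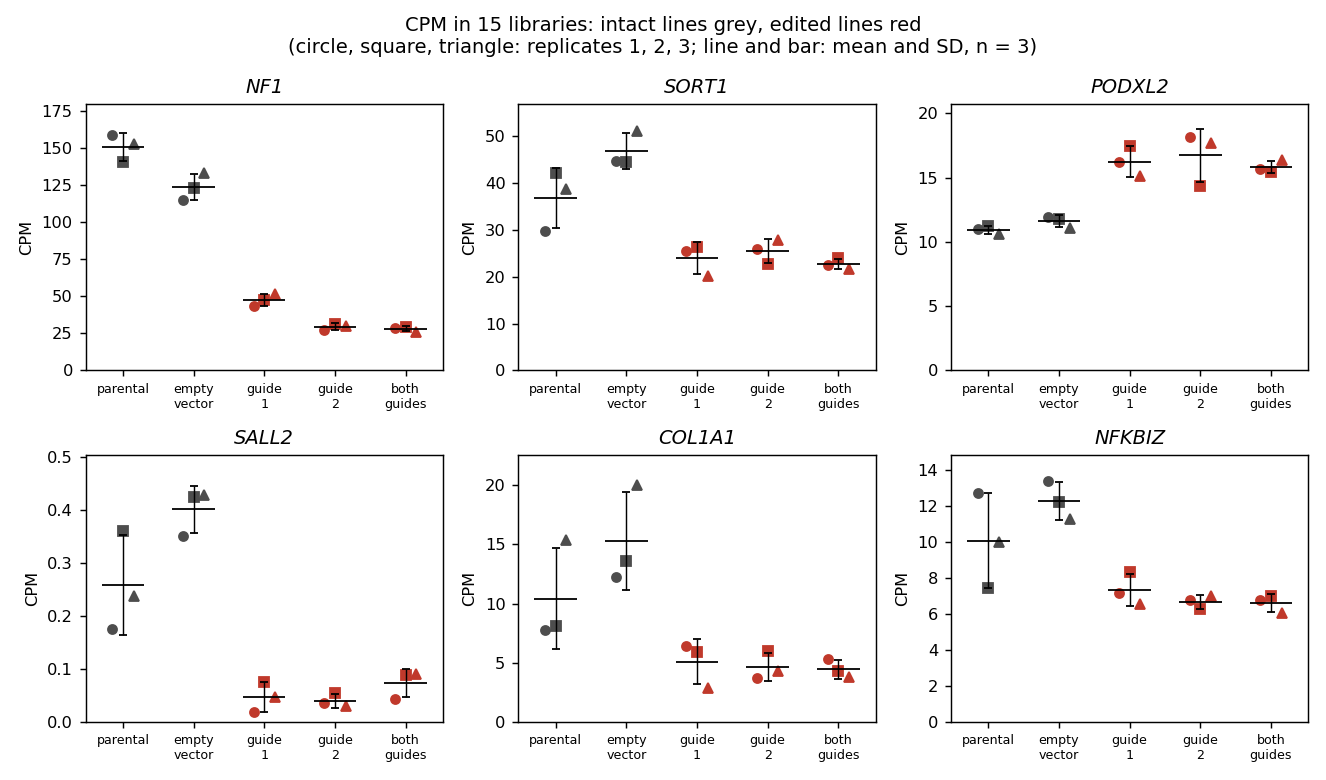
CPM (y axis, linear from 0) of 6 called genes in each library by line (x axis). Points are libraries, marked by replicate number, with the mean and SD of 3 libraries per line. NF1, SORT1, SALL2 and COL1A1 lie lower and PODXL2 higher in all edited (red) than in all intact (grey) libraries, and NFKBIZ overlaps through parental replicate 2 at 7.44 CPM.

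The empty vector and parental lines gave different backgrounds for these contrasts. Against the empty vector, 1026 genes were called in guide 1 (5.88%), 687 in guide 2 (3.94%) and 168 in both guides (0.962%). Against parental cells the numbers were 26 (0.149%), 9 (0.0516%) and 34 (0.195%), and 762 genes (4.37%) differed between parental and empty vector cells themselves. These contrasts share control libraries, so each is given by its own values. Among the 18 genes, NF1 was called in all 3 contrasts with parental cells. PODXL2 was called in guide 1 (log2 0.59 ± 0.10 SE, adjusted p = 0.0492), with 0.63 ± 0.10 (0.0608) in guide 2 and 0.54 ± 0.10 (0.0623) in both guides. SYNM was called in both guides (log2 -1.63 ± 0.21, adjusted p = 0.00921), and PYCARD in guide 1 (adjusted p = 0.0278), where every count was 0. The remaining 14 genes reached no call against parental cells in any single edited line. SALL2, for example, had a log2 difference from parental of -2.30 ± 0.44 in guide 1 (adjusted p = 0.0668), -2.64 ± 0.47 in guide 2 (0.0870) and -1.75 ± 0.43 in both guides (0.130).

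**Figure D3:**
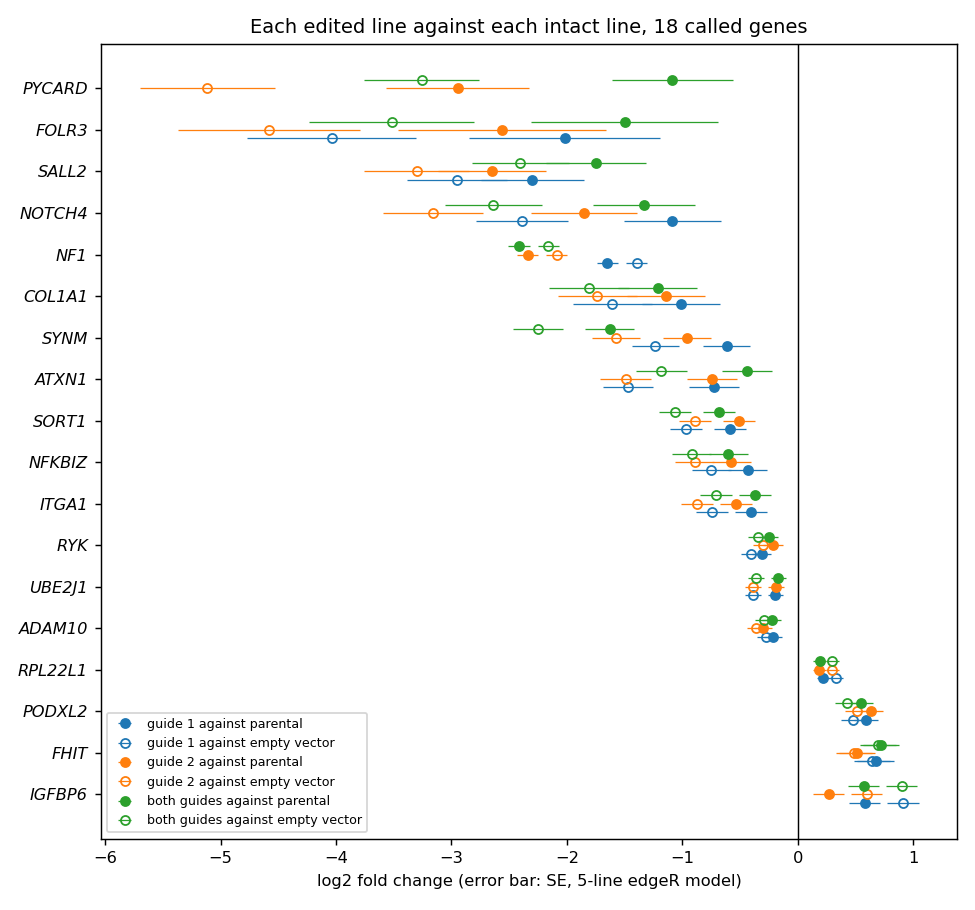
The log2 fold change with its SE (x axis) of each edited line against parental (filled) and empty vector (open) libraries for the 18 called genes (y axis). PYCARD in guide 1 is not drawn because all 3 libraries had 0 counts. The open points of NF1 lie nearer 0 than the filled ones, and the reverse holds for SALL2, SORT1 and COL1A1.

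The edited lines were also compared with one another. Guide 1 and guide 2 differed in 7 genes (0.0401%), both guides and guide 1 in 48 (0.275%), and both guides and guide 2 in 26 (0.149%). Of the 18 genes, NF1 was called there, in both contrasts with guide 1. SYNM was lowest in the both-guides line, at a log2 difference of -0.67 ± 0.22 from guide 2 (adjusted p = 0.530) and of -1.01 ± 0.21 from guide 1 (adjusted p = 0.0945), neither of which passed.

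The genes next in order of p that kept all edited line means on one side of both intact line means did not pass the test and are given as values. RGS4, a GTPase-activating protein for heterotrimeric G proteins, had the largest difference, with 1.99 to 10.5 CPM (median 3.65) in edited and 0.522 to 1.96 CPM (median 1.09) in intact libraries. The arms lay next to each other without overlap, with guide 2 replicate 2 at 1.99 CPM and parental replicate 1 at 1.96 CPM. By line RGS4 was 1.60 ± 0.325 CPM in parental, 0.725 ± 0.177 in empty vector, 4.67 ± 0.883 in guide 1, 7.63 ± 4.88 in guide 2 and 3.18 ± 0.337 in both-guides libraries (log2 2.16 ± 0.41, adjusted p = 0.0612, and 0.00675 without guide 2 replicate 2). SULT1B1, a cytosolic sulfotransferase gene, was 7.23 ± 1.78 CPM in parental, 8.83 ± 1.93 in empty vector, 20.4 ± 4.17 in guide 1, 28.1 ± 19.6 in guide 2 and 19.3 ± 2.66 in both-guides libraries (log2 1.50 ± 0.32, adjusted p = 0.0803). Guide 2 replicate 2 held 5.96 CPM while the other guide 2 libraries held 35.0 and 43.4 CPM. The long noncoding RNA MALAT1, a nuclear speckle component, was 988 ± 61.1 CPM in parental, 1256 ± 191 in empty vector, 1645 ± 419 in guide 1, 1827 ± 259 in guide 2 and 1611 ± 57.7 in both-guides libraries (adjusted p = 0.0715).

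Smaller differences in the same direction were seen for 5 further genes. The chromatin reader ZMYND8 was 69.7 ± 1.97 CPM in parental, 56.2 ± 2.14 in empty vector, 74.1 ± 3.69 in guide 1, 80.6 ± 1.85 in guide 2 and 79.2 ± 2.38 in both-guides libraries. The transcription factor gene DEAF1 was 33.1 ± 3.47 CPM in parental, 28.9 ± 1.71 in empty vector, 41.1 ± 1.91 in guide 1, 40.4 ± 5.04 in guide 2 and 38.1 ± 1.71 in both-guides libraries. An overlapping gene on the strand opposite to DEAF1 had a mean of 69.7 CPM. The tight junction-associated adhesion molecule CLMP was 299.5 ± 2.12 CPM in parental, 280.5 ± 13.8 in empty vector, 329 ± 9.98 in guide 1, 335 ± 10.2 in guide 2 and 325 ± 4.50 in both-guides libraries, without overlap between arms. The electron carrier CYB5A was 26.2 ± 1.15 CPM in parental, 25.2 ± 3.13 in empty vector, 34.9 ± 2.99 in guide 1, 30.9 ± 2.63 in guide 2 and 31.6 ± 0.980 in both-guides libraries, also without overlap. ACAD8, a mitochondrial enzyme of valine breakdown, was 20.7 ± 1.90 CPM in parental, 16.0 ± 0.481 in empty vector, 24.6 ± 2.95 in guide 1, 24.9 ± 2.15 in guide 2 and 23.8 ± 0.924 in both-guides libraries. Their adjusted p-values lay between 0.0612 and 0.0715.

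On the lower side came TNIP1, ERAP1 and CFAP251. TNIP1, an inhibitor of NF-kappa-B signalling that is itself an NF-kappa-B target, was 160.1 ± 30.9 CPM in parental, 204 ± 12.4 in empty vector, 124 ± 12.4 in guide 1, 130.4 ± 24.4 in guide 2 and 116 ± 1.94 in both-guides libraries (log2 -0.56 ± 0.11, adjusted p = 0.0612), with overlap. ERAP1, a peptidase that trims antigenic peptides, was 34.5 ± 1.77 CPM in parental, 33.8 ± 1.13 in empty vector, 28.1 ± 1.98 in guide 1, 27.5 ± 2.92 in guide 2 and 28.5 ± 1.02 in both-guides libraries without overlap. A gene that overlaps it on the other strand had a mean of 305 CPM. CFAP251, a ciliary and flagellar protein gene, was 18.6 ± 3.81 CPM in parental, 22.6 ± 5.27 in empty vector, 12.3 ± 1.95 in guide 1, 12.8 ± 3.63 in guide 2 and 13.2 ± 0.394 in both-guides libraries. Each had an adjusted p of 0.0612.

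The remaining description follows lists of genes, of which 16 were examined, each set beside the genome-wide median of 0.01 and the 0.103% of all genes called. Counts from the fit without guide 2 replicate 2 are to be read against 7.75% of all genes called in that fit, 2.46% higher and 5.29% lower. Where that library stood highest or lowest in the edited arm, leaving it out in itself moves the arm the other way. Of the RAS brakes, 12 of 15 were tested and NF1 alone was called, with a list median of -0.14. RASA1, another RAS GTPase-activating protein, was 74.8 ± 6.33 CPM in parental, 70.9 ± 6.74 in empty vector, 60.7 ± 4.30 in guide 1, 63.5 ± 1.19 in guide 2 and 64.9 ± 3.50 in both-guides libraries (log2 -0.21 ± 0.0538, adjusted p = 0.129). SPRED1, the membrane adaptor that binds neurofibromin, was 73.6 ± 2.69 CPM in parental, 70.0 ± 4.93 in empty vector, 63.3 ± 6.20 in guide 1, 64.5 ± 2.47 in guide 2 and 67.0 ± 8.02 in both-guides libraries (log2 -0.14 ± 0.0564, adjusted p = 0.304). DAB2IP was 34.4 ± 12.6 CPM in parental, 55.7 ± 13.3 in empty vector, 16.6 ± 0.569 in guide 1, 36.2 ± 30.7 in guide 2 and 26.2 ± 0.601 in both-guides libraries, and guide 2 replicate 2, at 71.7 CPM, exceeded every intact library. In the fit lacking that library NF1, RASA1 and DAB2IP were called lower.

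None of the 20 tested genes among RAS GTPases, exchange factors and RAF, MEK and ERK kinases was called, with a median of -0.07. SOS2, a guanine nucleotide exchange factor that loads RAS with GTP, was 33.6 ± 1.58 CPM in parental, 35.7 ± 2.42 in empty vector, 29.4 ± 0.227 in guide 1, 29.2 ± 2.87 in guide 2 and 29.0 ± 2.22 in both-guides libraries (log2 -0.25 ± 0.0572, adjusted p = 0.0998), and its arms overlapped slightly. NRAS, a RAS GTPase gene, was 152 ± 19.9 CPM in parental, 139 ± 16.9 in empty vector, 106 ± 18.2 in guide 1, 130.3 ± 25.6 in guide 2 and 125 ± 13.8 in both-guides libraries (adjusted p = 0.307). Leaving out guide 2 replicate 2 gave calls for 4 of these 20 genes, all lower, where 5.29% of all genes were called lower.

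The 10 transcripts used to read MAPK pathway activity were all tested and none was called, but 9 had a log2 difference above 0 and the median was 0.23. At an unadjusted p under 0.05 there were 5, all higher, against 12.2% of all genes, 887 of 17457 higher and 1248 lower. CCND1, the cyclin D1 gene that drives entry into S phase, ranged over 437 to 1107 CPM (median 848) in edited and 499 to 707 CPM (median 636) in intact libraries, and guide 2 replicate 2 was the lowest of all 15. By line CCND1 was 598 ± 99.9 CPM in parental, 659.6 ± 56.6 in empty vector, 964 ± 112 in guide 1, 864 ± 371 in guide 2 and 822 ± 32.9 in both-guides libraries (log2 0.49 ± 0.16, adjusted p = 0.221). The receptor tyrosine kinase EPHA2 was 193 ± 19.0 CPM in parental, 199.5 ± 10.1 in empty vector, 231 ± 18.1 in guide 1, 220.3 ± 35.3 in guide 2 and 234 ± 9.71 in both-guides libraries (log2 0.22 ± 0.0708, adjusted p = 0.218). Both were called higher without guide 2 replicate 2, the only members so called.

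Of the feedback inhibitors in this list, DUSP4, SPRY2 and SPRY4 lay above 0 and DUSP6 below 0 by less than its SE. None was called. SPRY4 was 60.8 ± 1.27 CPM in parental and 95.9 ± 11.1 in empty vector libraries (log2 0.32 ± 0.16, adjusted p = 0.432). In guide 1, guide 2 and both-guides libraries SPRY4 was 102.9 ± 13.05, 90.8 ± 28.25 and 100.1 ± 4.5 CPM. DUSP4, a nuclear ERK phosphatase, was 145 ± 31.1 CPM in parental, 170.0 ± 9.01 in empty vector, 181 ± 33.9 in guide 1, 244 ± 72.0 in guide 2 and 202 ± 3.17 in both-guides libraries. SPRY2, an inhibitor of receptor-to-RAS signalling, was 21.1 ± 1.28 CPM in parental, 15.3 ± 1.46 in empty vector, 19.8 ± 1.29 in guide 1, 23.5 ± 0.885 in guide 2 and 20.7 ± 1.51 in both-guides libraries. The adjusted p-values were 0.259 for DUSP4 and 0.361 for SPRY2. DUSP6, the cytoplasmic ERK phosphatase, was the member below 0, at 28.0 ± 8.86 CPM in parental, 57.4 ± 0.435 in empty vector, 32.6 ± 9.29 in guide 1, 40.0 ± 20.2 in guide 2 and 42.6 ± 1.56 in both-guides libraries (log2 -0.16 ± 0.25, adjusted p = 0.851). The edited lines lay between the parental and the empty vector line. The mean log2 CPM of the list was 5.88 to 6.19 in intact libraries and 6.10 to 6.35 in edited libraries other than guide 2 replicate 2, which held 5.86, below all the others.

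The 23 immediate early and other ERK-responsive genes had a median of 0.10 and no call. EGR1 was 42.0 ± 6.54 CPM in parental, 98.6 ± 31.9 in empty vector, 159.7 ± 103 in guide 1, 137 ± 79.7 in guide 2 and 106 ± 5.93 in both-guides libraries. The libraries of guide 2 held 165, 47.4 and 199 CPM in replicates 1 to 3 (log2 0.94 ± 0.40, adjusted p = 0.354). HMGA2, a chromatin protein gene, was 98.1 ± 11.6 CPM in parental, 99.2 ± 7.25 in empty vector, 109 ± 8.57 in guide 1, 132 ± 1.77 in guide 2 and 121 ± 5.96 in both-guides libraries (log2 0.29 ± 0.0700, adjusted p = 0.105). ETS2, an ETS factor phosphorylated by ERK, was 57.9 ± 8.57 CPM in parental, 67.1 ± 9.71 in empty vector, 39.7 ± 2.35 in guide 1, 53.3 ± 6.81 in guide 2 and 42.5 ± 1.14 in both-guides libraries (log2 -0.47 ± 0.11, adjusted p = 0.1). With guide 2 replicate 2 removed, 3 of these 23 genes were called higher and 2 lower, against 2.46% and 5.29% of all genes.

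In the EGF receptor family and its ligands, 14 of 15 genes were tested, none was called, and the median was -0.16. EGFR was 552 ± 156 CPM in parental, 532 ± 32.1 in empty vector, 386 ± 5.29 in guide 1, 564 ± 315 in guide 2 and 430.2 ± 23.7 in both-guides libraries, and guide 2 replicate 2, at 927 CPM, was the highest library (adjusted p = 0.656). The ligand HBEGF was 5.05 ± 2.67 CPM in parental, 19.0 ± 5.18 in empty vector, 4.45 ± 0.713 in guide 1, 8.07 ± 3.73 in guide 2 and 6.23 ± 0.348 in both-guides libraries (log2 -0.96 ± 0.39, adjusted p = 0.331). The edited lines lay below the empty vector line and around the parental one. The inhibitor ERRFI1, which binds and blocks the EGFR kinase, was 80.5 ± 11.6 CPM in parental, 100.2 ± 24.4 in empty vector, 143 ± 50.0 in guide 1, 119 ± 47.5 in guide 2 and 126 ± 3.32 in both-guides libraries (log2 0.52 ± 0.20, adjusted p = 0.293). Without guide 2 replicate 2, 4 of the 14 genes were called lower and 1 higher. EGFR was then called lower (log2 -0.44, adjusted p = 0.0148) and ERRFI1 higher (log2 0.60, adjusted p = 0.0370).

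Along the PI3K, mTOR and RAL branch, 21 genes had a median of -0.04 and no call. The catalytic subunit gene PIK3CA was 55.0 ± 3.54 CPM in parental, 62.8 ± 7.43 in empty vector, 46.6 ± 2.42 in guide 1, 49.1 ± 4.57 in guide 2 and 49.6 ± 4.64 in both-guides libraries. PIK3CB, a further catalytic subunit gene, was 70.7 ± 3.24 CPM in parental, 79.1 ± 6.97 in empty vector, 60.5 ± 4.72 in guide 1, 64.1 ± 0.598 in guide 2 and 65.5 ± 1.76 in both-guides libraries. The log2 differences of the pair were -0.28 ± 0.0722 and -0.24 ± 0.0587 (adjusted p = 0.123 and 0.106). Removing guide 2 replicate 2 gave 5 members called lower and 1 higher.

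**Figure D4:**
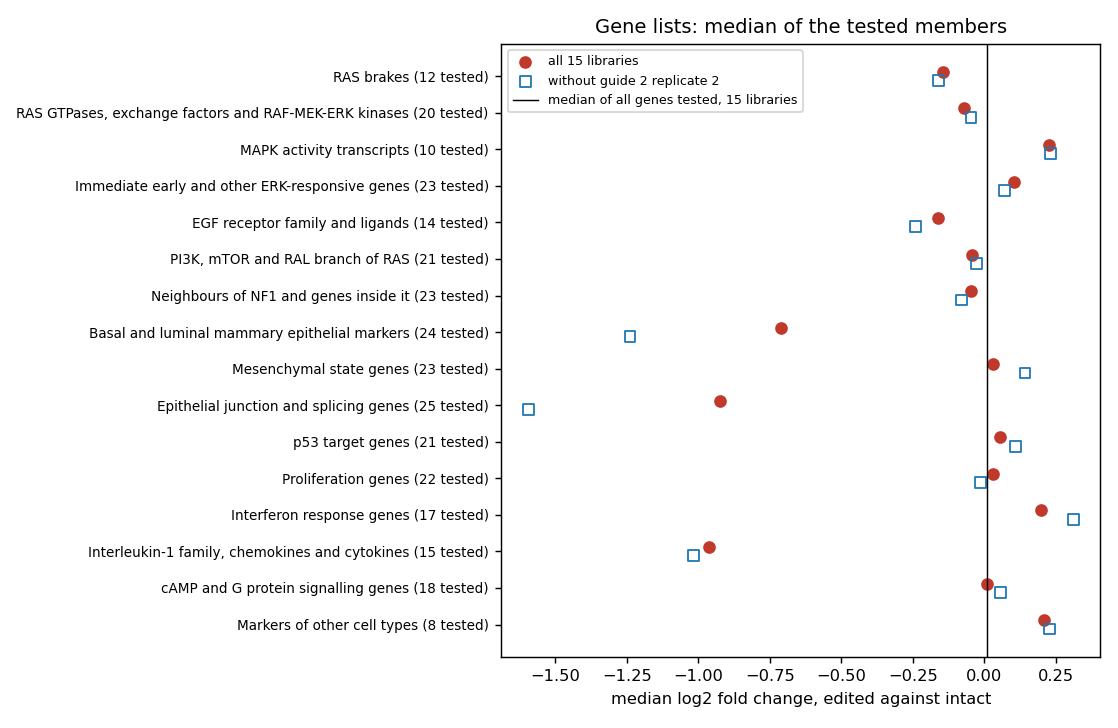
The median log2 fold change of edited against intact libraries (x axis) over the tested members of each of 16 lists (y axis), with all 15 libraries (circles) and without guide 2 replicate 2 (squares). The line marks the median of all genes tested, 0.01. The basal and luminal, junction, and interleukin-1 and chemokine lists lie at -0.71, -0.93 and -0.96, and the first and second of these move to -1.24 and -1.59 without that library.

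Epithelial genes differed widely between libraries of 1 line. Of the basal and luminal markers, 24 of 27 were tested, 3 lay above 0, the median was -0.71 and none was called. The list median depended on the intact line. It was -1.40, 0.16 and -0.0955 for guide 1, guide 2 and both guides against parental cells, and -2.05, -0.65 and -0.96 against the empty vector. KRT14, a basal keratin, was 282 ± 254 CPM in parental, 185 ± 107 in empty vector, 8.55 ± 1.85 in guide 1, 394 ± 652 in guide 2 and 30.6 ± 4.31 in both-guides libraries. It held 18.9, 1147 and 17.4 CPM in guide 2 replicates 1 to 3 and 545, 37.8 and 265 CPM in parental replicates 1 to 3. KRT5, its partner keratin, was 1798 ± 1091 CPM in parental, 2066 ± 267 in empty vector, 832 ± 191 in guide 1, 2166 ± 2452 in guide 2 and 1045 ± 72.3 in both-guides libraries. The epithelial adhesion molecule EPCAM was 13.1 ± 14.2 CPM in parental, 12.8 ± 4.74 in empty vector, 2.13 ± 0.272 in guide 1, 36.0 ± 57.7 in guide 2 and 3.12 ± 0.249 in both-guides libraries. In all 3 genes guide 2 replicate 2 was the highest library of the 15. In the fit without it 10 of the 24 members were called lower and none higher, against 5.29% of all genes called lower. Its list level, a mean log2 CPM of 6.76, was the highest of the edited arm. Leaving it out thus in itself lowers that arm, and the count is not separate support for a lower list.

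The 25 tested genes of epithelial junctions and epithelial splicing had a median of -0.93, 1 above 0 and no call. Against parental cells the median was -1.48 in guide 1, -0.0185 in guide 2 and -0.29 in both guides. Against the empty vector it was -2.47, -0.68 and -1.13 in the same order. TJP1, the scaffold ZO-1 of tight junctions, was 164 ± 13.1 CPM in parental, 179 ± 16.98 in empty vector, 141 ± 3.89 in guide 1, 138 ± 7.86 in guide 2 and 153 ± 8.25 in both-guides libraries (log2 -0.26 ± 0.0623, adjusted p = 0.105), with a small overlap. Desmoplakin (DSP), which anchors keratin at desmosomes, was 351 ± 173 CPM in parental, 679 ± 221 in empty vector, 124 ± 13.6 in guide 1, 345 ± 408 in guide 2 and 305 ± 30.6 in both-guides libraries. Occludin (OCLN), which spans tight junctions, was 0.843 ± 0.752 CPM in parental, 2.29 ± 1.84 in empty vector, 0.0572 ± 0.0231 in guide 1, 0.660 ± 1.06 in guide 2 and 0.269 ± 0.108 in both-guides libraries. CLDN4, a claudin, was 0.679 ± 0.429 CPM in parental, 0.792 ± 0.526 in empty vector, 0.188 ± 0.0342 in guide 1, 0.411 ± 0.492 in guide 2 and 0.247 ± 0.0457 in both-guides libraries (adjusted p = 0.226). Per library, the mean log2 CPM of the list was 0.50, 0.52 and 0.52 in guide 1, 0.31, 3.78 and 0.42 in guide 2, 2.41, 2.23 and 2.03 in both guides, 3.04, 3.16 and 3.98 in empty vector and 3.06, 1.24 and 2.88 in parental replicates 1 to 3. The both-guides line thus lay between guide 1 and the empty vector line, and parental replicate 2 lay below it. The fit without guide 2 replicate 2 called 11 of these 25 genes lower and none higher, again against 5.29%. That library was the highest edited one in this list, so leaving it out in itself lowers the edited arm. The count is thus not separate support for a lower list. Parental replicate 2, low at 1.24, stayed in that fit, where it lowers the intact arm. The share of guide 2 replicate 2 in the epithelial lists was measured by leaving it out, and its cause was not tested.

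**Figure D5:**
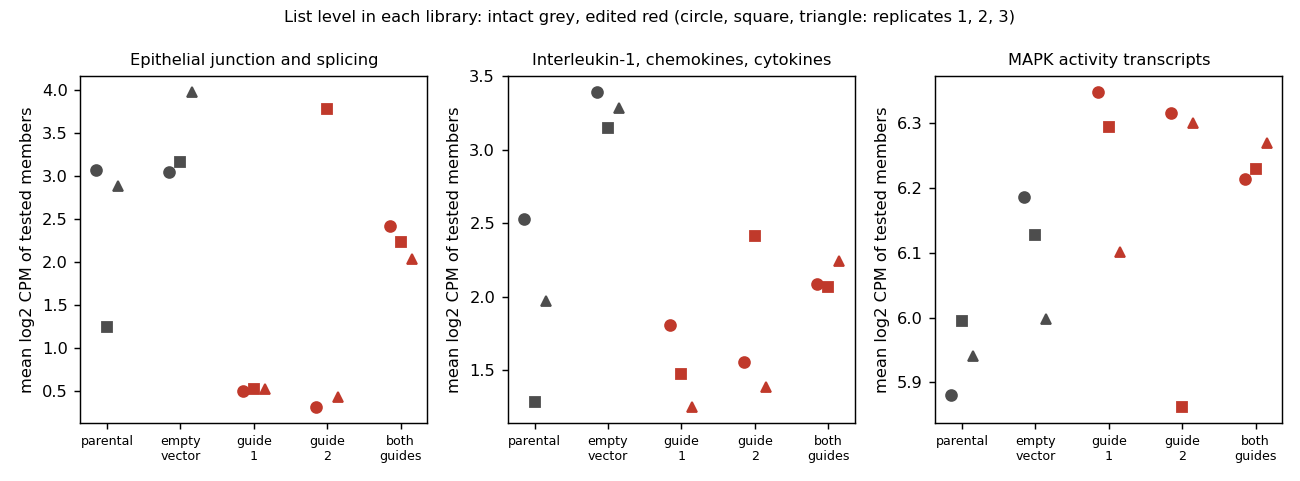
The mean log2 CPM of the tested members (y axis) in each library by line (x axis), for 3 lists. Points are libraries, marked by replicate number, grey for intact and red for edited. Guide 2 replicate 2 lies at 3.78 in the junction list, among the intact libraries, and at 5.86 in the MAPK list, below all others, while parental replicate 2 lies at 1.24 in the junction list.

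Mesenchymal genes were split in direction. Of 25 listed, 23 were tested, 12 lay above 0, the median was 0.03 and COL1A1 alone was called, in the lower direction. Vimentin (VIM), the mesenchymal intermediate filament, was 1917 ± 417 CPM in parental, 1573 ± 28.7 in empty vector, 1984 ± 57.6 in guide 1, 1660.0 ± 689.6 in guide 2 and 1795 ± 43.1 in both-guides libraries (adjusted p = 0.917). Periostin (POSTN), a matrix protein, was 95.6 ± 44.1 CPM in parental, 22.8 ± 10.97 in empty vector, 7.33 ± 1.30 in guide 1, 21.6 ± 13.0 in guide 2 and 7.17 ± 0.506 in both-guides libraries (log2 -2.28 ± 0.52, adjusted p = 0.0953). COL1A2, the partner chain of COL1A1, was 0.530 ± 0.0279 CPM in parental, 0.115 ± 0.0134 in empty vector, 0.0931 ± 0.00389 in guide 1, 0.133 ± 0.0756 in guide 2 and 0.0799 ± 0.0328 in both-guides libraries (adjusted p = 0.128). Decorin (DCN), a matrix proteoglycan, was 105 ± 18.4 CPM in parental, 113 ± 26.7 in empty vector, 831 ± 352 in guide 1, 261 ± 182 in guide 2 and 241 ± 12.6 in both-guides libraries (log2 2.03 ± 0.49, adjusted p = 0.105). Guide 2 replicate 2, at 55.4 CPM, lay under every intact library. SNAI1, a repressor of E-cadherin, was 1.19 ± 0.116 CPM in parental, 2.82 ± 0.352 in empty vector, 0.792 ± 0.188 in guide 1, 0.805 ± 0.0251 in guide 2 and 1.29 ± 0.191 in both-guides libraries (log2 -1.07 ± 0.27, adjusted p = 0.119). Without guide 2 replicate 2, 3 members were called higher and 4 lower.

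Of the interleukin-1 family, chemokines and cytokines, 15 of 20 genes were tested, 2 lay above 0, the median was -0.96 and none was called, while 8 reached an unadjusted p under 0.05, all lower, against 12.2% of all genes in either direction. CXCL1, a neutrophil chemoattractant, ranged over 33.2 to 69.7 CPM (median 50.7) in edited and 56.7 to 184 CPM (median 109) in intact libraries. Across the lines CXCL1 was 102 ± 71.0 CPM in parental, 117 ± 23.8 in empty vector, 46.0 ± 11.2 in guide 1, 57.1 ± 10.9 in guide 2 and 49.7 ± 1.83 in both-guides libraries (log2 -1.10 ± 0.22, adjusted p = 0.0612). The arms overlapped, and parental replicates 1 to 3 held 184, 56.7 and 64.8 CPM. CXCL3 was 4.56 ± 3.17 CPM in parental, 7.74 ± 1.10 in empty vector, 2.79 ± 0.795 in guide 1, 2.97 ± 0.729 in guide 2 and 3.45 ± 0.202 in both-guides libraries (adjusted p = 0.119). CXCL2 was 4.87 ± 3.13 CPM in parental, 6.44 ± 0.269 in empty vector, 2.00 ± 0.559 in guide 1, 3.91 ± 3.55 in guide 2 and 2.78 ± 0.201 in both-guides libraries (adjusted p = 0.267).

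The other neutrophil chemokine gene CXCL8 was 52.2 ± 34.4 CPM in parental, 108 ± 22.1 in empty vector, 43.5 ± 19.2 in guide 1, 46.0 ± 2.52 in guide 2 and 43.2 ± 2.60 in both-guides libraries (adjusted p = 0.22). IL1B, encoding interleukin-1 beta, was 3.25 ± 1.85 CPM in parental, 47.9 ± 23.6 in empty vector, 1.78 ± 0.811 in guide 1, 4.43 ± 5.03 in guide 2 and 3.13 ± 0.0472 in both-guides libraries (log2 -3.06 ± 0.73, adjusted p = 0.105). Its fold thus followed the empty vector line: the mean of the edited libraries was 6.51% of the empty vector mean and 96.0% of the parental mean. The list median was -1.48, -1.10 and -1.18 for guide 1, guide 2 and both guides against the empty vector, and -0.47, 0.20 and 0.0947 against parental cells. Without guide 2 replicate 2, 6 members were called lower and none higher.

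The lists that remain held no call other than COL1A1. Interferon response genes (17 tested) had a median of 0.20 and no call. OAS1, an interferon-induced antiviral enzyme gene, was 2.96 ± 0.638 CPM in parental, 2.49 ± 0.0306 in empty vector, 3.60 ± 0.388 in guide 1, 3.79 ± 0.564 in guide 2 and 3.56 ± 0.229 in both-guides libraries (log2 0.42 ± 0.12, adjusted p = 0.156). IFI44L, a further interferon-induced gene, was 49.7 ± 17.1 CPM in parental, 41.5 ± 7.67 in empty vector, 91.4 ± 21.4 in guide 1, 61.7 ± 44.7 in guide 2 and 56.8 ± 1.10 in both-guides libraries (adjusted p = 0.479). Guide 2 replicate 2 was the lowest edited library for both, at 3.15 and 10.8 CPM, and 4 members were called higher without it. The 18 genes of cAMP and G protein signalling had a median of 0.01 and no call. PRKAR2B, a regulatory subunit of protein kinase A, was 0.133 ± 0.0732 CPM in parental, 0.483 ± 0.103 in empty vector, 0.955 ± 0.390 in guide 1, 0.403 ± 0.102 in guide 2 and 1.80 ± 0.332 in both-guides libraries (log2 1.76 ± 0.52, adjusted p = 0.185). Leaving out guide 2 replicate 2 gave 3 members called higher.

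The 21 p53 targets, with a median of 0.06, and the 22 proliferation genes, with a median of 0.03, gave no call with or without guide 2 replicate 2. For guide 1, guide 2 and both guides, the p53 target median was 0.51, 0.19 and 0.15 against parental cells and 0.078, -0.28 and -0.27 against the empty vector. The proliferation median was -0.54, -0.10 and -0.0914 against parental cells and 0.0849, 0.53 and 0.49 against the empty vector, so that its sign turned with the intact line. Guide 1 replicate 3 differed from its line in both lists, at a mean log2 CPM of 7.66 for proliferation genes (6.78 and 6.79 in replicates 1 and 2) and of 5.11 for p53 targets (5.595 and 5.679). CDKN1A, the p21 cell cycle inhibitor, was 117 ± 10.9 CPM in parental, 263 ± 6.74 in empty vector, 273 ± 91.2 in guide 1, 161 ± 61.8 in guide 2 and 182 ± 4.70 in both-guides libraries (adjusted p = 0.912). MKI67, the Ki-67 proliferation marker, was 768 ± 5.41 CPM in parental, 494 ± 82.7 in empty vector, 509.8 ± 196 in guide 1, 717 ± 69.4 in guide 2 and 732 ± 39.6 in both-guides libraries (adjusted p = 0.939). In both genes the empty vector and parental lines differed by more than the arms did. Among the markers of other cell types 8 of 20 were tested, with a median of 0.21, and COL1A1 was the single call.

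Fewer genes stood in 2 fits that allowed for libraries of a line being alike, of which the summed counts alone had the line as the unit. Counts summed by line left 0 genes called by edgeR, NF1 included (log2 -1.96, adjusted p = 0.954), with 974 at an unadjusted p under 0.05. A limma voom fit with the line as a random block left 2, NF1 (adjusted p = 8.71e-06) and SALL2 (adjusted p = 0.0275), at an estimated within-line correlation of 0.168. That fit shares the correlation over all genes and still counts libraries, so its p-values are not those of independent lines. PODXL2 and SORT1 had an adjusted p of 0.0602 there, and the other 14 genes lay between 0.131 and 0.338. NF1 was the one gene called in each of the 5 fits that left out 1 line.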

How the data were processed

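Poly(A) RNA of 15 MCF10 libraries was sequenced, 3 for each of 5 genotypes. The authors deposited whole-number read counts per gene, unpooled, and a table of CPM, which equals count over library total to within 4.91e-11 and was used for levels. Per the submitters' processing notes, the tools included Trim Galore 0.6.0 and STAR 2.7.8a and the build was GRCh38. The program that counted reads, its annotation and whether strand was used are not given in the sources used here, so overlapping genes and genes with close copies are uncertain. Library preparation used the KAPA mRNA HyperPrep kit, per the labels.

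Of 60721 genes in the table, 60357 have a symbol and 25347 no count. After filterByExpr by line, 17457 were tested with edgeR 4.0.16 (R 4.3.3): TMM scaling (factors 0.9725 to 1.0167), 1 model over 15 libraries with the arm as its term (13 residual degrees of freedom), glmQLFTest, two-sided, Benjamini-Hochberg adjustment over all genes tested. Line contrasts came from a 5-line model of the same kind. The SE is the size of the log2 fold change over the square root of F. List levels are means of log2 CPM with a prior count of 2. The procedure was tested on simulated counts of independent libraries without differences between lines, so that test does not cover the spread between lines. The genes named are NF1, every called list member, and the first 12 higher and first 12 lower genes with an average log2 CPM of at least 1 and all edited line means on one side of both intact ones, with the next by unadjusted p where fewer were called. Called genes under that level, and list members given as examples, were added after their values were seen. The members and lists were chosen with earlier results of these data known. Intervals for low counts are exact 95% intervals, for counting error only. Promoters are from RefSeq. limma 3.58.1, DESeq2 1.42.0, numpy 2.4.6, pandas 2.3.3, scipy 1.17.1 and matplotlib 3.10.9 were also used.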

Additional observations from a re-analysis of the deposited data

Results flagged for a closer look

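Within each arm, the highest and the lowest library were compared with the rest of the arm by Dixon's gap test for the called genes and the list means, 68 groups in all. Of these 6 held a library that lay apart. A chance rate of about 1 in 20 groups holds for independent groups of like libraries. These arms mix lines and the same libraries recur in every group, so that rate is not a measure for the 6. The log2 CPM of NFKBIZ in guide 1 replicate 2 was 3.094, above the nearest edited library at 2.834, a gap of 0.531 of the range. The immediate early and ERK-responsive list had its lowest edited mean, 4.429, in guide 1 replicate 3, with the nearest library at 4.743. The PI3K, mTOR and RAL list had its highest intact mean, 5.365, in empty vector replicate 3, with the nearest at 5.321. Guide 2 replicate 2 was the lowest edited library in 3 lists: 4.325 for mesenchymal genes (nearest 5.334), 0.923 for interferon response genes (nearest 2.062) and 4.161 for cAMP and G protein signalling genes (nearest 4.73). What set guide 2 replicate 2 apart was not tested.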

How the results depend on the processing

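The 18 calls (4 higher, 14 lower) depended strongly on the setting. A limit of 1 on the absolute log2 fold change left 8 genes, all lower. DESeq2 called 307 (74 higher, 233 lower), a 5-line model with averaged contrasts 263 (56, 207), and limma voom with sample quality weights 3142 (1269, 1873), where guide 2 replicate 2 had a weight of 0.124 and the lowest other weight was 0.332. The line as a random block left 2 (0, 2), and 12 (3 and 9) without guide 2 replicate 2. Counts summed by line left 0 genes (0 higher, 0 lower), with or without that library, and NF1, at log2 -1.96 and -1.98 there, was no longer called in 5 summed profiles. RLE scaling gave 14 and no filter 16. Leaving out a line gave 1 call without guide 1 (0, 1), 177 without guide 2 (53, 124), 5 without both guides (2, 3), 3 without empty vector (1, 2) and 672 without parental (147, 525).

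Leaving out each library in turn gave 4 to 1383 calls, 1 to 439 higher and 3 to 944 lower, and NF1 log2 values of -2.05 to -1.92. Without guide 2 replicate 2 the count was 1383, without parental replicates 1, 2 and 3 it was 68, 78 and 13, without guide 1 replicates 1, 2 and 3 it was 5, 7 and 10, without empty vector replicates it was 4, 4 and 6, without both-guides replicates 5, 4 and 4, and without guide 2 replicates 1 and 3 it was 4 each. Without both guide 2 replicate 2 and parental replicate 2, a choice made after seeing the data like the other 2 that drop guide 2 replicate 2 from a line fit, 2537 genes were called (1000, 1537).

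A replicate block left 4 calls (1 higher, 3 lower: NF1, SALL2, SORT1 and PODXL2). Deviations from the line means correlated at a mean of -0.05 over 30 pairs of libraries with the same number (-0.75 to 0.279) and of 0.028 over 60 other pairs, so the numbers were not taken to pair the libraries. No direction of a called gene or of NF1 reversed under any alternative run. Over the 18 genes and these alternatives, 288 values kept the direction and lost the call, and 267 kept both. Without the empty vector line FOLR3, SALL2 and NOTCH4 were too low to be tested. Depth limits FOLR3, SALL2, PYCARD and NOTCH4, which rest on few counts.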
